A study of Mus musculus with 77 samples.

Results

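The Sertoli cell RNA described here comes from 2 arrays labelled 4d, set against 2 arrays at time 0. These 4 arrays were chosen by their labels alone out of 77 in the series: the line is Amh-cre, the fraction is immunoprecipitated (IP) RNA, and the labelled time after retinoic acid (RA) is 4d or 0. The mice were FVB/N and carried Amh-Cre, driven by the promoter of the anti-Müllerian hormone gene, with RiboTag, an allele of a ribosomal protein gene that gains an epitope tag where Cre acts. IP RNA is the polysome-associated RNA pulled down with the tagged ribosomes of Sertoli cells, and total RNA is that of the whole testis. All animals of every group received BDAD, an inhibitor of RA synthesis, on 9 consecutive days. Animals of time 0 received no RA, and those labelled 4d or 4h were injected with RA after BDAD. The comparison groups were Amh IP arrays labelled 4h (2 arrays), 48h and 6d, Amh total arrays at 0 and 4d (2 each), Stra8-Cre:RiboTag arrays of the same strain, in which the tag marks germ cells (IP 0, 4h and 4d, 2 each; total 4h, 3, and total 4d, 2), and Ngn3-Cre:RiboTag IP arrays at 0 and 4h, of C57BL/6 mice. The labels give no age, and no group had BDAD followed by a vehicle injection, so RA, the injection, age and the end of BDAD cannot be told apart as sources of a change from time 0.

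Retinoic acid is made in the testis from retinol in successive oxidation steps, the first by retinol dehydrogenases such as Rdh10 and the second by the Aldh1a enzymes. Dhrs3 turns retinal back to retinol, Lrat stores retinol as esters, and the Cyp26 enzymes degrade RA. RA binds the receptors Rara, Rarb and Rarg, which pair with retinoid X receptors on DNA repeats, and several genes of this metabolism are themselves induced by RA, so that the tissue limits its own exposure. Sertoli cells, the somatic cells that nurse the germ cells, are a source of RA for spermatogonia and respond to it through Rara.

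Before any result, the time label of these arrays is in doubt. The Amh IP arrays labelled 4d carried high levels of several RA-induced genes and low levels of some genes that were high at 6d. For genes such as Rarb and Tsx, given below, the Amh IP arrays labelled 4h showed the opposite. Other genes followed this only in part. Cyp26a1, an RA-induced gene, was higher still at 8d. Meiotic genes had a mean log2 intensity of 8.42 at 6d and 9.05 at 8d, but 7.79 at the label 4h and at time 0 and 7.49 at the label 4d. Like Tsx they were lower at the label 4d than at 4h, but the label 4h was not above time 0. At 12h, 24h and 48h they were at 7.64, 7.85 and 7.56. Rarb, an RA receptor gene induced by RA, was at 382 and 378 intensity units in the arrays labelled 4d, at 145 and 143 in those labelled 4h, and at 134 and 130 at time 0. Tsx, a testis gene expressed in Sertoli cells, was at 609 and 571 in the arrays labelled 4d, 5316 and 4049 in those labelled 4h, 685 and 656 at time 0, and 4200 and 7265 at 6d. In the germ cell line, Stra8 IP arrays labelled 4h had Rarb at 623 and 594 and Tsx at 288 and 279, and those labelled 4d had Rarb at 133 and 145 and Tsx at 936 and 492. The first of these Stra8 IP 4d arrays, with Tsx at 936, also had higher levels of somatic cell genes: its mean log2 intensity was 10.71 over the Sertoli cell genes, 8.81 over the macrophage genes, 9.49 over the myoid genes and 9.17 over the Leydig cell genes, against 9.91, 7.82, 8.78 and 8.47 in the second. The part of these genes' cells in the Tsx values of that group was not tested. An exchange of the 4h and 4d labels in the Amh line was not tested with any record outside these values, and the labels do not settle it. Amh total arrays labelled 4h were not analysed here. In the sentences below a group is therefore called by its label, the values of the arrays labelled 4h stand beside those labelled 4d where they bear on it, and no difference is read as a change over the labelled days.

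The RNA in these arrays carried the marks of Sertoli cells. Amh, the hormone that regresses the Müllerian duct, was at 8477 and 7974 intensity units in the arrays labelled 4d and at 7434 and 7583 at time 0 (log2 difference 0.13 ± 0.31 SE, adjusted p = 0.842, n = 2 each, limma). Sox9, the transcription factor of Sertoli identity, was at 9837 and 9543 against 8404 and 8068 (0.23 ± 0.20, adjusted p = 0.5). Over 30 measured Sertoli cell genes the mean log2 intensity came to 12.01 and 11.93 in the arrays labelled 4d, 12.01 and 11.98 at time 0, and 11.44 and 11.43 in Amh total arrays labelled 4d. Across genes, which are not independent replicates, the 2 arrays labelled 4d correlated with r = 0.996 and those at time 0 with r = 0.998. Array medians were 265 and 283 units in the arrays labelled 4d and 267 and 266 at time 0, within the 253 to 301 of all 77 arrays. No pair of arrays had identical values (0 pairs).

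Rarb and Cyp26a1 were both called higher in these arrays than at time 0. Their promoters are printed because each holds the direct repeat that RA receptors are known to bind. They are the 250 bases before the start of the gene in RefSeq, build GRCm38.p6, with the repeat in capitals; Rarb lies on chr14:16575477-16575726, minus strand, and Cyp26a1 on chr19:37697558-37697807, plus strand.
Rarb: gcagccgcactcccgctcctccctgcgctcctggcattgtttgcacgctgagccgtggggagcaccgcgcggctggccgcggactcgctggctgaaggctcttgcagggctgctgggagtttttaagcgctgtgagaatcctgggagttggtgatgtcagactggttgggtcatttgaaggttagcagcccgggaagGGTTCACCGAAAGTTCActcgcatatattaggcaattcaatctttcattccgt
Cyp26a1: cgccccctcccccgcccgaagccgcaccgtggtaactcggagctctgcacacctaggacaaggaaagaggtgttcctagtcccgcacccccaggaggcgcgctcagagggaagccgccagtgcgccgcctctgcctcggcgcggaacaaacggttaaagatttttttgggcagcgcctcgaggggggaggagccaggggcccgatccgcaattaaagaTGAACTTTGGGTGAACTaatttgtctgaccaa
The motif searched was a pair of half-sites in the same orientation, each reading AGGTCA or else AGTTCA, with the forms GGTTCA and GGGTCA also allowed, with 5 bases between them, on both strands, called DR5. In Rarb the repeat reads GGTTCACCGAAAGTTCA and ends 36 bases before the start, and in Cyp26a1 it reads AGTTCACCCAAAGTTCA on the opposite strand, with 15 bases to the start. Among all promoters of this length in the table, 29 of 32851 (0.0883%) held a DR5. Of 103 promoters of the 76 matched genes called higher in the arrays labelled 4d, those of Cyp26a1 and Rarb held one (2, 1.94%), and of 90 promoters of 65 matched genes called lower 0 did. A single half-site was in 38.6% of all promoters, 39.8% of those called higher and 28.9% of those called lower. The listed promoters of Lrat and Dhrs3, also called higher, held no DR5 in this window and are not printed, and Rdh10 and Tgm2 were not listed. A match is a description of these letters, not a bound site.

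The largest difference from time 0 was that of a retinoid gene. A gene was called when its adjusted p was under 0.05 over 19938 genes and its difference at least 2-fold, and 188 genes were called (0.943%), 97 higher (0.487%) and 91 lower (0.456%). The 2 arrays labelled 4d both lay above both time 0 arrays for 7713 genes (38.7%) and below both for 5095 (25.6%). Rdh10 was at 5550 and 5709 units in the arrays labelled 4d and at 517 and 633 at time 0. The difference was 9.83-fold (log2 3.30 ± 0.49, adjusted p = 3.16e-06). Both arrays labelled 4d lay above both at time 0, as the rule for naming genes by size required. The arrays labelled 4h had 715 and 349. Rarb, given above, was 2.88-fold higher (1.53 ± 0.25, adjusted p = 2.97e-05). Lrat was at 448 and 365 against 157 and 136 (1.47 ± 0.32, adjusted p = 0.00154), and at 174 and 146 in the arrays labelled 4h. All 3 kept their call in every one of 14 other settings (Rdh10 between 3.15 and 3.44, Lrat between 1.32 and 1.62).

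The enzymes that remove retinal and RA were higher as well. Cyp26a1 was at 310 and 290 units in the arrays labelled 4d, 92.2 and 71.1 at time 0, and 101 and 110 in the arrays labelled 4h (3.70-fold over time 0, log2 1.89 ± 0.43, adjusted p = 0.00209). Without Amh IP 0 replicate 2 its difference was 1.70 and its call was lost. Cyp26a1 lay among the 30% of genes with the lowest mean signal over all arrays. Dhrs3 was at 739 and 856 against 313 and 336 (1.29 ± 0.30, adjusted p = 0.00271), and at 1.19 with adjusted p = 0.062 without Amh IP 4d replicate 2. Cyp26b1, the Cyp26 enzyme of the peritubular region and Sertoli cells in the testis, was at 677 and 718 against 654 and 679 (0.07 ± 0.19, adjusted p = 0.881), so the groups overlapped and the difference was within its error. Tgm2, a transglutaminase and a classical RA-induced gene, was at 2564 and 2331 against 450 and 560 (4.87-fold, 2.28 ± 0.25, adjusted p = 4.66e-09). Stra8, an RA-induced gene of germ cells, was at 252 and 228 against 132 and 135 (0.85 ± 0.38, adjusted p = 0.154) and did not pass. Stra8 and Kit, a germ cell receptor at 321 and 325 against 235 and 248 (0.42 ± 0.29, adjusted p = 0.374), stood low on these arrays, where germ cell RNA is depleted.

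By the lists of the pathway, calls fell on single members rather than whole families. Of 6 RA and retinoid X receptors, Rarb was called; Rara, the receptor of Sertoli cells, was at 2610 and 2424 against 3075 and 3208 (-0.32 ± 0.14, adjusted p = 0.154), and Rarg at 352 and 388 against 330 and 345 (0.13 ± 0.16, adjusted p = 0.664). Of 13 synthesis genes, Rdh10 and Dhrs3 were called and the list median was -0.06. Aldh1a1 was at 9175 and 8971 against 10295 and 9903 (-0.15 ± 0.22) and Aldh1a2 at 1789 and 1944 against 2170 and 2201 (-0.23 ± 0.13), neither past the test (adjusted p = 0.711 and adjusted p = 0.266). Of 3 degradation genes Cyp26a1 was called, and of 12 measured storage and transport genes (14 listed) Lrat. The vitamin A receptor Stra6, at 4839 and 5395 against 4472 and 4561 (0.18 ± 0.33), did not pass. Of 29 measured RA-induced targets (32 listed), 7 were called higher, against 0.487% of all genes, and 0 lower. This list was set with earlier results of these data known. It holds Rdh10, Rarb and Lrat, which were singled out for this comparison beforehand. Its counts, here and below, are therefore no test of enrichment. The members called higher were Cyp26a1, Rarb, Dhrs3, Rdh10, Lrat, Tgm2 and Rec8, a meiotic cohesin at 1082 and 995 against 438 and 401 (1.31 ± 0.23, adjusted p = 0.000102). The list median was 0.26, against 0.06 for all genes. Of 26 measured Hox, Meis and Pbx genes 0 were called (median 0.16, between -0.77 and 0.50).

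**Figure D1:**
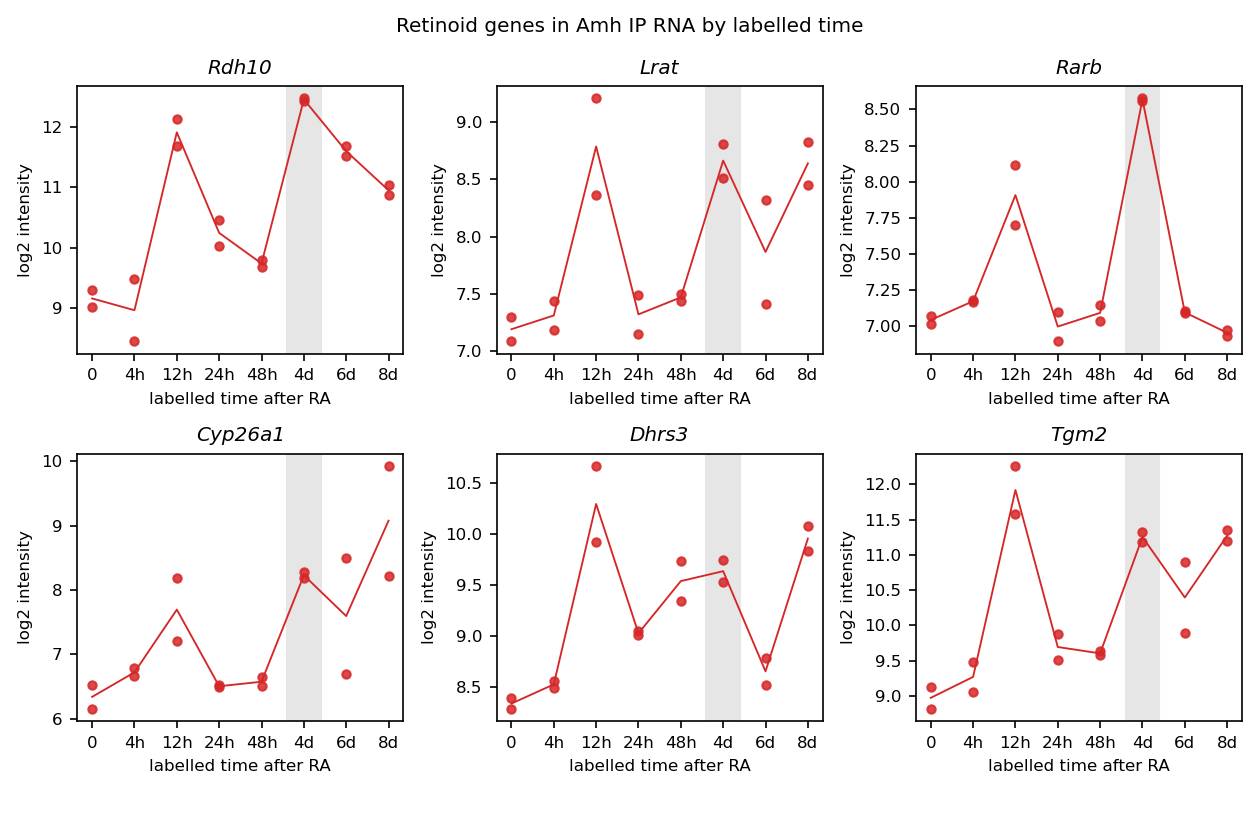
Log2 intensity of 6 retinoid genes in each Amh IP array (points; 2 arrays a group) by labelled time, lines joining group means and the grey band marking the arrays labelled 4d. Rdh10 and Rarb have their highest mean at the label 4d (12.46 and 8.57), while Lrat, Dhrs3 and Tgm2 are as high or higher at 12h (8.78, 10.29 and 11.92) and Cyp26a1 at 8d (9.08).

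Across the labelled times the retinoid genes did not share 1 profile. Mean log2 intensity of Rarb was 8.57 at the label 4d, 7.91 at 12h and between 6.95 and 7.17 at the other 6 labels. Rdh10 was at 12.46 at the label 4d, 11.91 at 12h, 11.60 at 6d and 10.95 at 8d, and lowest at the label 4h (8.97) and at time 0 (9.16). Cyp26a1 was at 8.23 at the label 4d, 7.70 at 12h and 9.08 at 8d. Of the 97 genes called higher, 44 had their highest mean of the 8 labels at 4d, and of the 91 called lower 54 had their lowest. Their choice by the difference from time 0 favours such an extreme, and the share over all genes was not computed. The median difference of the 97 was 0.53 from 12h and 0.04 from 8d, so as a set they were about as high at 8d. For the 91 it was -0.59 and -0.46.

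Several other genes were higher by over 2 on the log2 scale, none by as much as Rdh10. Lzts1, a leucine zipper protein, was at 2299 and 2326 units against 306 and 355 at time 0 (2.81 ± 0.29, adjusted p = 1.33e-09), with 417 and 334 in the arrays labelled 4h. Uchl1, a ubiquitin hydrolase, was at 3654 and 3704 against 621 and 637 (2.55 ± 0.25, adjusted p = 3.59e-10). Fstl3, a secreted inhibitor of activin, was at 7073 and 7280 against 1302 and 1349 (2.44 ± 0.47, adjusted p = 0.00032). In these 3 genes both arrays labelled 4d stood above both at time 0, as the rule for naming genes by size required. The same was so for 38.7% of all genes. The ciliary gene Cfap161 differed by 2.48, the calcium-dependent kinase Camk1d by 2.39, the death receptor Tnfrsf21 by 2.38, the organic cation transporter Slc22a4 by 2.24, the protease Capn2 by 2.11 and the aminopeptidase Anpep by 2.09. Camk1d was less even between the arrays labelled 4d, at 1715 and 1010 units. Nags, which makes the activator of the urea cycle, differed by 2.15. For Esyt3 (2.70), a tether between membranes, Tmem255a (2.17) and Cacng5 (2.11), a calcium channel subunit, the arrays labelled 4h were also above time 0: Cacng5 was at 1326 and 733 there, 1340 and 1300 in those labelled 4d, and 289 and 324 at time 0.

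Genes called lower included transcription factors that respond to growth factor signals. Etv1, an ETS factor, was at 273 and 260 units in the arrays labelled 4d, 1064 and 1210 at time 0 and 1046 and 1181 in the arrays labelled 4h (-2.09 ± 0.28, adjusted p = 5e-07). Etv5, its relative, was at 278 and 316 against 758 and 737 (-1.33 ± 0.22, adjusted p = 1.93e-05). The immediate early factor Nr4a1 was at 522 and 504 against 1323 and 1860 (-1.61 ± 0.36, adjusted p = 0.00154), and Egr1 at 264 and 332 against 494 and 1107 (-1.32 ± 0.23, adjusted p = 4.72e-05). Both rested on the second time 0 array: without Amh IP 0 replicate 2 Nr4a1 was at -1.37 (adjusted p = 0.0704) and Egr1 at -0.74 (adjusted p = 0.0733). These 2 were the only calls among 19 immediate early genes (median -0.01), where 0.456% of all genes were called lower. Gdnf, the Sertoli factor that maintains spermatogonial stem cells, was at 319 and 366 against 736 and 764, and at 515 and 523 in the arrays labelled 4h (-1.14 ± 0.22, adjusted p = 0.000268; -0.99 after quantile normalization, under the 2-fold minimum). It was the only call among 25 Sertoli niche factors (median -0.11), at the same share of all genes, and a single call is no result about the list.

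The other genes called lower by most were Tceal6 (-1.80), the kinase Ptk2b (-1.73), the mTOR inhibitor relative Ddit4l (-1.60), the oestrogen receptor Gper1 (-1.57), Map2k6 (-1.57), which activates p38, Plekhf1 (-1.56), the mitochondrial coactivator Ppargc1a (-1.54), the fatty acid transporter Slc27a6 (-1.52), the potassium channel Kcna6 (-1.51), Cachd1 and Arxes1 (-1.44). Map2k6 was the most even, at 289.3 and 289.5 units in the arrays labelled 4d and 864 and 857 at time 0. Tceal6, Ptk2b, Ddit4l, Gper1, Plekhf1, Ppargc1a and Slc27a6 were as high or higher in the arrays labelled 4h as at time 0 (Ptk2b 2554 and 2656 against 1347 and 1590). Kcna6 and Cachd1 were low in both, with Cachd1 at 467 and 438 in the arrays labelled 4d and 335 and 381 in those labelled 4h, against 1344 and 1220. Of 366 small RNA genes 5 were lower and 0 higher, against 0.456% and 0.487% of all genes. Snora23 (-1.61) was among them, and it lost its call without Amh IP 4d replicate 2 (-1.18). Snord82 (-1.46, between -1.99 and -0.93 in other settings) was another. It lost its call without Amh IP 0 replicate 1, Amh IP 0 replicate 2 or Amh IP 4d replicate 2.

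**Figure D2:**
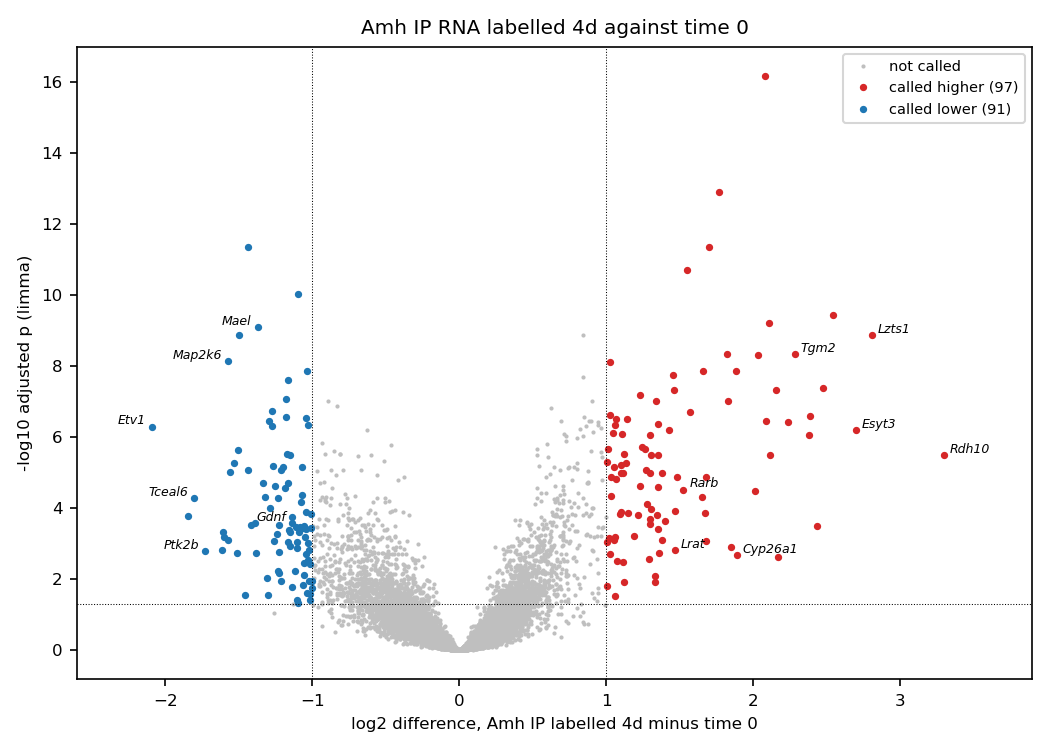
Log2 difference (x) and -log10 of the limma adjusted p (y) of 19938 genes, Amh IP labelled 4d minus time 0, with dotted lines at the 2-fold minimum and at an adjusted p of 0.05. The 97 genes called higher (red) reach 3.30 at Rdh10 and the 91 called lower (blue) reach -2.09 at Etv1.

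The other functional lists are read against the 0.943% of all genes that were called, a share at which a list of this size would usually hold none. Of 15 heat shock and stress genes 3 were higher: the growth arrest genes Gadd45b, at 2104 and 2059 against 493 and 643 (1.89 ± 0.21, adjusted p = 1.33e-08), and Gadd45a (1.02), and Sesn2 (1.11), a stress sensor upstream of mTOR. Gadd45a was at 0.91 without Amh IP 0 replicate 1 and 0.98 both without Amh IP 4d replicate 2 and after quantile normalization, and Sesn2 at 0.99 without Amh IP 0 replicate 1, all under the 2-fold minimum. Sesn2 was also high in the arrays labelled 4h (5159 and 4628, against 4828 and 4739 in those labelled 4d and 2039 and 2416 at time 0). Of 18 metabolic genes the monocarboxylate transporter Slc16a4 was lower (-1.22 ± 0.27, adjusted p = 0.00167). Among 20 maturation and hormone receptor genes, 20 junction components, 16 Notch pathway genes and 15 cholesterol synthesis genes 0 were called in limma, where 4849 of all genes had an unadjusted p under 0.05. Of 30 Sertoli cell genes Gata1, a Sertoli transcription factor in the testis, was higher, at 3745 and 3968 against 1764 and 1821 (1.10 ± 0.17, adjusted p = 9.96e-06), and it was as high in the arrays labelled 4h (3787 and 3362).

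Markers of other cells moved in part. The germ cell and piRNA genes had a mean log2 intensity of 8.01 and 7.86 in the arrays labelled 4d, 8.32 and 8.48 at time 0 and 8.18 and 8.13 in the arrays labelled 4h, while in Amh total RNA it was 10.03 and 10.03 at the label 4d and 10.01 and 10.08 at time 0. Of its 19 members 3 were called lower (list median -0.47), against 0.456% of all genes called lower and a median of 0.06 over all genes: Mael, a piRNA protein, at 431 and 292 against 895 and 943 (-1.37 ± 0.14, adjusted p = 8.1e-10), the RNA-binding protein gene Dazl (-1.04) and the ADP/ATP carrier gene Slc25a31 (-1.09). Ddx4, a germ cell helicase, was at 293 and 250 against 498 and 550 (-0.95 ± 0.18, adjusted p = 0.000205), short of the 2-fold minimum. The call of Dazl went without Amh IP 0 replicate 2 (-0.91) and after quantile normalization (-0.90), and that of Slc25a31 without Amh IP 4d replicate 2 (-0.82, adjusted p = 0.0717). How far carried-over germ cell RNA takes part in the genes called lower was not tested. In bulk RNA, fewer cells of a type and less RNA per cell cannot be told apart.

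For the marker lists that follow, the shares of all genes were 0.487% called higher and 0.456% called lower, so a single call in a list is no result about it. Of 28 measured meiotic genes Rec8 was higher and Sycp1 lower (-1.00 ± 0.27, adjusted p = 0.0111). Sycp1 lost its call without Amh IP 0 replicate 1 (-1.06), Amh IP 0 replicate 2 (-0.95) or Amh IP 4d replicate 2 (-0.87), and after median centring it fell just short of the 2-fold minimum. Of 20 undifferentiated spermatogonia genes Etv5 was lower, and of 14 differentiating ones 0 were called. Leydig cell genes held 1 call of 10: Star, which carries cholesterol into mitochondria, at 2156 and 2678 against 1122 and 1182 (1.06 ± 0.33, adjusted p = 0.0295). Its adjusted p was between 0.0504 and 0.286 without any 1 of the 4 arrays. The steroid enzyme Cyp17a1 was at 414 and 386 against 1163 and 502 (-0.93 ± 0.46, adjusted p = 0.202), and the whole Leydig list at 8.95 and 8.96 against 9.13 and 8.93. Endothelial genes held 1 call of 12, Kdr, a VEGF receptor (-1.17 ± 0.19, adjusted p = 1.91e-05), with the list at 8.02 and 8.10 against 8.27 and 8.23. Of 12 myoid genes 0 were called (Acta2 at 1466 and 1550 against 2189 and 2408, -0.61 ± 0.21, adjusted p = 0.0601), and of 14 macrophage genes 0. Of 8 erythroid genes 2 were measured and 0 called.

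Mitosis genes separated the arrays labelled 4d from those labelled 4h most plainly. The mean log2 intensity of 19 measured mitosis genes was 10.03 and 10.23 in the arrays labelled 4d, 10.57 and 10.45 at time 0 and 8.83 and 8.77 in the arrays labelled 4h. The group means of Amh IP RNA were 9.76 at 12h, 9.39 at 24h, 8.68 at 48h, 9.39 at 6d and 9.34 at 8d. Against time 0, 0 of the 19 were called in the arrays labelled 4d (median -0.34), where 0.943% of all genes were called. In those labelled 4h 16 were lower (median -1.77), against 1.32% of all genes. Ccnb2, a mitotic cyclin, was at 2201 and 2919 units in the arrays labelled 4d, 4212 and 4032 at time 0 and 435 and 435 in those labelled 4h. DNA replication genes were not called in the arrays labelled 4d (0 of 20, median 0.03).

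**Figure D3:**
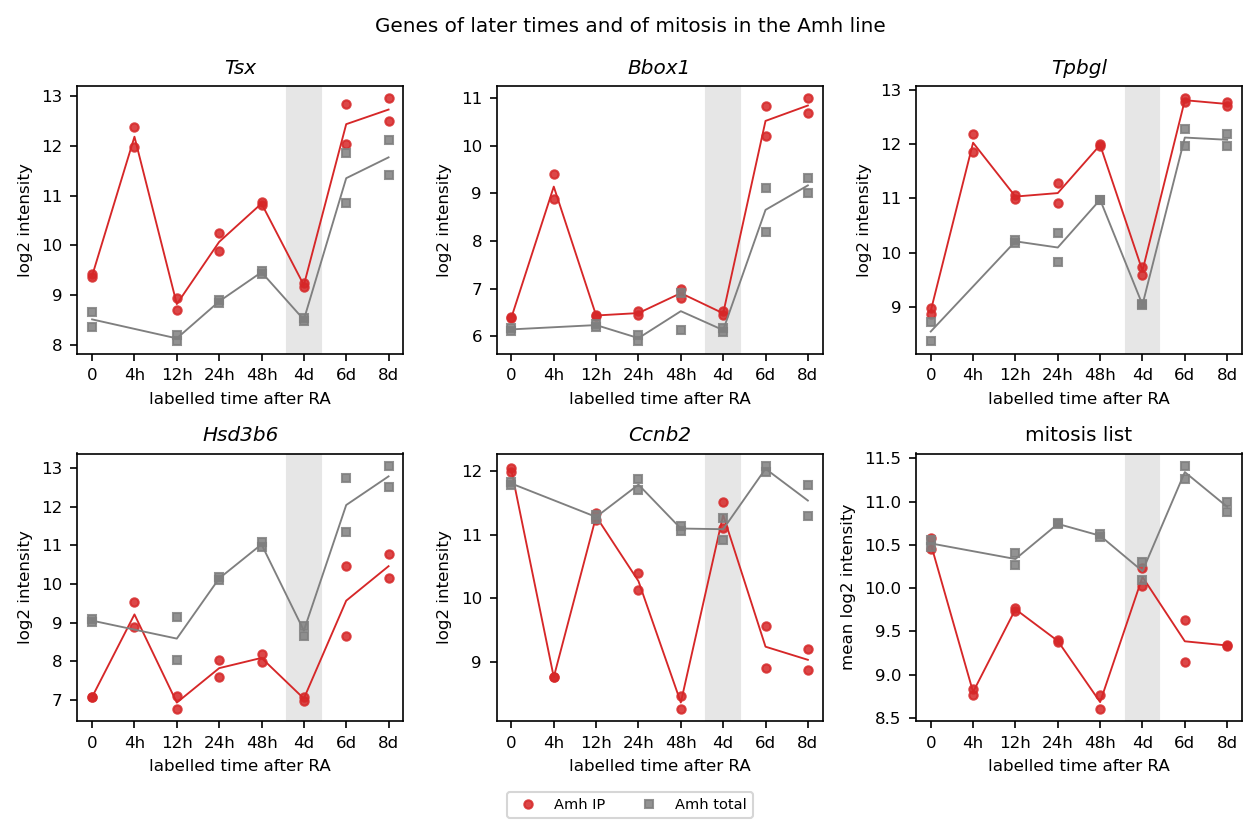
Log2 intensity of 5 genes and the mean over 19 mitosis genes in Amh IP (circles) and Amh total arrays (squares) by labelled time, with lines through group means and a grey band at the label 4d. In IP RNA Tsx, Bbox1, Tpbgl and Hsd3b6 are low at 4d (9.20, 6.48, 9.66 and 7.03) and high at 4h (12.18, 9.14, 12.03 and 9.21), and the mitosis list is at 10.13 and 8.80.

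The direct test between the arrays labelled 4d and 4h called 504 genes (2.53%), 242 higher (1.21%) and 262 lower (1.31%) in those labelled 4d. Of the mitosis list 14 were higher (median 1.42), among them Bub1, Plk1, Aurka and Mki67. Rdh10 was higher by 3.49 ± 0.49 (adjusted p = 3.23e-07), with Lgals1, a galectin (2.83 ± 0.27), Ccnjl (2.77), Tspan18 (2.77) and Capn2 (2.71). Of the RA-induced targets 6 were higher and 0 lower: Rdh10, Cyp26a1 (1.51), Rarb (1.40), Lrat (1.35), Dhrs3 (1.11) and Tgm2 (1.99). Lower in the arrays labelled 4d were Tsx (-2.98 ± 0.47, adjusted p = 4.32e-06), Gfpt2 (-2.89), which feeds the hexosamine pathway, Car7 (-2.88), a carbonic anhydrase, Bbox1 (-2.66), of carnitine synthesis, and Shc4 (-2.61). Bbox1 was at 86.7 and 92.0 units in the arrays labelled 4d, 679 and 470 in those labelled 4h, 84.3 and 84.0 at time 0 and 1175 and 1839 at 6d. Against time 0 the arrays labelled 4h had 387 calls (1.94%), 124 higher (0.622%) and 263 lower (1.32%), led upward by Car7 (3.20), Tpbgl (3.10) and Tsx (2.79) and with 0 RA-induced targets among them. Both comparisons with time 0 share its 2 arrays.

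Against the labelled times before and after, the arrays labelled 4d differed from 48h in 277 genes (1.39%), 150 higher (0.752%) and 127 lower (0.637%), and from 6d in 523 (2.62%), 244 higher (1.22%) and 279 lower (1.4%). Over 48h Ccnb2 was higher by 2.94 ± 0.15 (adjusted p = 2.42e-20), with Rdh10 (2.72), Camk1d (2.69), Capn2 (2.60) and Mmp2, a matrix metalloproteinase (2.59 ± 0.21). Mmp2 was at 3674 and 3606 in the arrays labelled 4d, 3589 and 3297 at time 0, 645 and 564 at 48h and 368 and 436 at 6d. Of the mitosis list 13 were higher than at 48h (median 1.42) and 6 higher than at 6d (median 0.77). Ptk2b (-2.36), Slc41a2 (-2.34), Tpbgl (-2.32), Plekhf1 (-2.30) and Tceal6 (-2.09) were lower than at 48h. Below 6d lay Bbox1 (-4.04 ± 0.25, adjusted p = 1.57e-17), Meioc (-3.50), which sustains meiotic prophase, Tsx (-3.23), the chloride channel Ano1 (-3.22) and Slco1a5 (-3.19). Above 6d were Mmp2 (3.18), Serpinf1 (2.73), Ifitm2 (2.58), Adcyap1r1 (2.48) and Depdc1a (2.43), and Rarb (1.47 ± 0.25, adjusted p = 1.66e-05). Rdh10 did not pass against 6d (0.86 ± 0.49, adjusted p = 0.283), nor did Cyp26a1, whose 6d arrays were far apart at 104 and 360 units (0.63 ± 0.43, adjusted p = 0.416).

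Over all genes the root mean square log2 difference of group means placed the arrays labelled 4d nearest to 48h (0.283) and time 0 (0.294), then to 12h (0.316), 24h (0.335), the label 4h (0.341), 6d (0.368) and 8d (0.478). The arrays labelled 4h lay nearest to 48h (0.203) and 6d (0.254), and 0.341 from time 0. These distances carry no test.

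Total RNA of the same line, labelled 4d, showed much of the same pattern. It differed from Amh total at time 0 in 110 genes (0.552%), 79 higher (0.396%) and 31 lower (0.155%). Cyp26a1 was at 420 and 431 units against 53.0 and 76.0 (2.75 ± 0.43, adjusted p = 1.68e-05), Stra8 at 900 and 844 against 118 and 182 (2.57 ± 0.38, adjusted p = 6.83e-06), Rdh10 at 3127 and 3203 against 555 and 572 (2.49 ± 0.49, adjusted p = 0.000491) and Rarb at 470 and 451 against 114 and 119 (1.98 ± 0.25, adjusted p = 5.18e-07). Each of these was higher in both arrays labelled 4d than in both at time 0, which the rule for naming genes by size required of Cyp26a1, Stra8 and Rdh10. Esyt3 was higher by 2.71, and Fstl3 was 5.65-fold higher (adjusted p = 0.000348), and Slc27a6 (-1.59), Slc16a4 (-1.52), Map7d3 (-1.39) and Epha7 (-1.38) were lower. Of 29 RA-induced targets 9 were called higher, now with Stra8, Hoxb1 and Hoxb4, and of 26 Hox, Meis and Pbx genes 3 (Hoxb1, Hoxb2 and Hoxb4). Of the 97 genes called higher in IP RNA, 49 were called higher in total RNA, which is 50.5% of the first list and 62% of the second, and 97 had a positive difference there, against 53.9% of all genes. Of the 91 called lower, 20 were called lower in total RNA (22% and 64.5% of the lists).

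**Figure D4:**
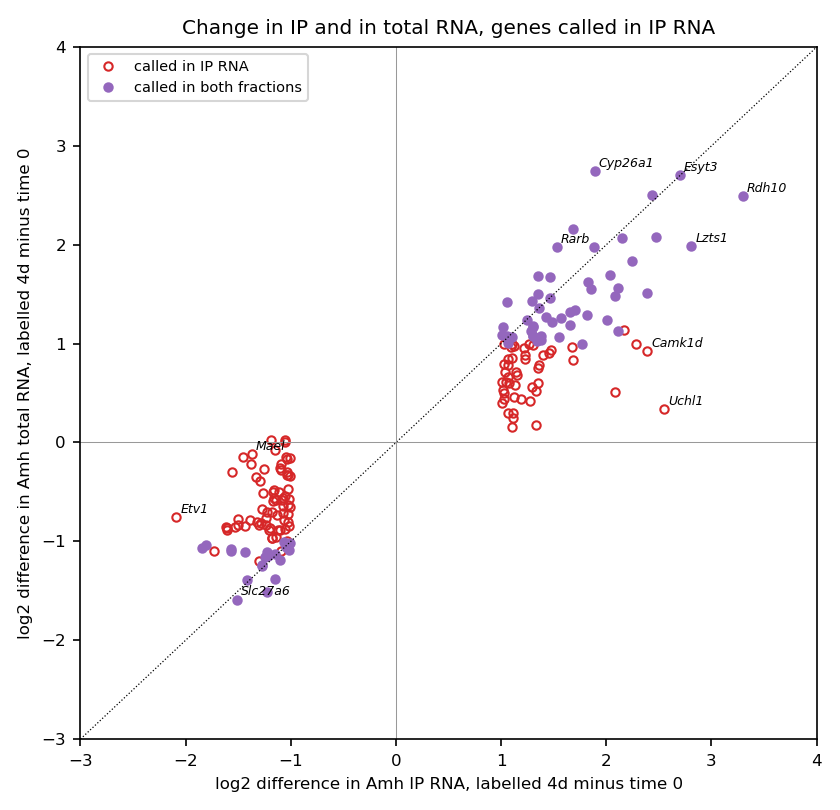
Log2 difference from time 0 in Amh IP RNA (x) and in Amh total RNA (y) at the label 4d, for the 188 genes called in IP RNA; filled points were called in both fractions and the dotted line marks equal differences. The genes called higher lie above 0 on both axes, and Uchl1 (2.55 in IP, 0.34 in total) lies farthest below the line.

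The difference between the 2 fractions in their change from time 0 passed for 8 genes (0.0401%), 2 more positive in IP RNA (0.01%) and 6 more negative (0.0301%), with 767 at an unadjusted p under 0.05. Uchl1 was at 4291 and 4245 units in total RNA at the label 4d and 3306 and 3462 at time 0, so its change in IP RNA was larger by 2.21 ± 0.35 (adjusted p = 0.000632). Prm1, a protamine of spermatids, differed by 1.66 ± 0.27, but its total RNA at time 0 was uneven, at 1031 and 414 units, and its IP arrays were at 249 and 197 at time 0 and 167 and 188 at the label 4d. Mael (-1.26 ± 0.20, adjusted p = 0.000605) was lower in IP RNA, with 5190 and 5065 in total RNA against 5609 and 5490. Camk2n1, an inhibitor of calcium-dependent kinase, was lower in IP (302 and 336 against 543 and 574) and higher in total RNA (1242 and 1097 against 760 and 828), a difference of -1.37 ± 0.17. Epp13 (-1.28), Hoxb2 (-1.07), Snora31 (-1.42) and Rny1 (-1.78), a small Y RNA, made up the rest. The count was 3 without Amh total 0 replicate 1, 5 without Amh IP 0 replicate 2 or Amh total 4d replicate 1, 4 without Amh IP 4d replicate 2 and 35 with the compared groups fitted alone. For Stra8 the difference of -1.73 ± 0.54 did not pass (adjusted p = 0.473).

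Set directly against total RNA at the same label, the IP arrays labelled 4d were higher for 103 genes (0.517%) and lower for 795 (3.99%), 898 in all (4.5%), and the split was 258 and 653 after centring each array on its median, which moved the median of all genes by 0.14. Of 19 germ cell and piRNA genes, 16 were lower (median -2.19), led by Mael (-3.85 ± 0.14, adjusted p = 4.93e-27). Myoid genes were lower for 7 of 12, macrophage genes for 8 of 14 and endothelial genes for 6 of 12. Of 30 Sertoli cell genes 4 were higher and 0 lower (median 0.49), with Amh higher by 1.04 ± 0.31 (adjusted p = 0.00691) and Gata1 by 1.10 ± 0.17. Sox9 was at 0.73 ± 0.20. Among the retinoid genes, Dhrs3 was lower in IP RNA (-1.48 ± 0.30, adjusted p = 0.000111), as were Cyp26b1 (-1.63), Rarg (-1.56), Adh1, Rbp4 and Crabp1. Stra6 was called higher in IP RNA. Rdh10 (0.83 ± 0.49), Rarb (-0.28), Lrat (-0.33) and Cyp26a1 (-0.50) did not pass.

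The germ cell line gives values for the same genes at each label. Against its own time 0, Stra8 IP RNA had 48 calls at the label 4h (0.241%; 46 higher, 0.231%, and 2 lower, 0.01%) and 388 at 4d (1.95%; 169 higher, 0.848%, and 219 lower, 1.1%). In Stra8 IP RNA labelled 4h, Cyp26a1 was higher than at time 0 by 2.91, Rarb by 2.21, Tgm2 by 1.26 and Dhrs3 by 1.18, all called, and in Stra8 IP RNA labelled 4d these genes differed by -0.04, 0.08, 0.38 and 0.23, none called. Rdh10 and Lrat were higher by 1.24 and 0.73 in Stra8 IP RNA labelled 4h and differed by -0.11 and -0.05 in that labelled 4d, none called. The Amh IP change at the label 4d differed from the Stra8 IP change at 4d in 872 genes (4.37%), 397 more positive (1.99%) and 475 more negative (2.38%). Without Stra8 IP 4d replicate 1, the array with higher somatic cell genes, it differed in 789, of which 398 were more positive and 391 more negative. Of the RA-induced targets 8 were more positive, including Rdh10 (3.40 ± 0.69, adjusted p = 0.000262), Tgm2 (1.90), Cyp26a1 (1.93 ± 0.61, adjusted p = 0.0182), Lrat (1.52) and Rarb (1.45 ± 0.36, adjusted p = 0.00268), and 0 were more negative. Against the Stra8 IP change at 4h it differed in 150 genes (0.752%), 43 more positive (0.216%) and 107 more negative (0.537%), and of the RA-induced targets 0 passed (median -0.02). Rarb differed there by -0.68 ± 0.36 (adjusted p = 0.237), Cyp26a1 by -1.02 ± 0.61 (adjusted p = 0.3), Lrat by 0.74 ± 0.46 (adjusted p = 0.317) and Rdh10 by 2.05 ± 0.69 (adjusted p = 0.069). These p-values do not show that the lines acted alike. The count of 150 became 74 without Stra8 IP 0 replicate 1, 93 without Amh IP 0 replicate 2 and 86 without Amh IP 4d replicate 2.

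Lzts1 (3.73 ± 0.41 against 4d, 3.00 ± 0.41 against 4h) and Uchl1 (2.76 and 2.70) were among the 5 most positive genes named in both comparisons. Germ cells held Uchl1 at 6920 and 6463 units at time 0, far above the 621 and 637 of Amh IP RNA. Of the 97 genes called higher in the Amh arrays labelled 4d, 6 were called higher in Stra8 IP RNA labelled 4h (Anxa9, Cidea, Cyp26a1, Dhrs3, Rarb and Tgm2; 6.19% of the 97 and 13% of the 46 there) and 83 had the same sign, against 40.4% of all genes. In Stra8 IP RNA labelled 4d, 3 were called higher (3.09% of the 97 and 1.78% of the 169 there), 5 were called in the opposite direction and 51 had the same sign, against 42.9% of all genes. In Ngn3 IP RNA labelled 4h, of the other strain, 3 were called higher (Cyp26a1, Rarb and Tnfrsf21; 5.36% of the 56 there, among 62 calls, 0.311%, 0.281% higher and 0.0301% lower) and 88 had the same sign, against 54.5%.

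Whole-testis RNA of the Amh line carries the same doubted label, so it is no independent check of the IP arrays, and its genes below were partly followed after their values were seen. Amh total labelled 4d differed from Stra8 total labelled 4d, of the same strain, in 251 genes (1.26%), 140 higher (0.702%) and 111 lower (0.557%). Rdh10 was higher in the Amh line by 2.61 ± 0.49 (adjusted p = 0.000146), Cyp26a1 by 2.45 ± 0.43 and Fstl3 by 2.31, and 11 RA-induced targets were called higher and 0 lower. Cpm, a carboxypeptidase (2.99), and B4galt6 (2.31) were higher too. Tlcd4 (-2.95), Hsd3b6, a steroid enzyme of Leydig cells (-2.83 ± 0.67, adjusted p = 0.00244), Serpina3a (-2.58), Tsx (-2.29 ± 0.47, adjusted p = 0.000508) and Dmrtb1, a spermatogonial transcription factor (-2.26), were lower. Hsd3b6 was at 483 and 406 units in Amh total labelled 4d, 543 and 517 in Amh total at time 0 and 3452 and 2871 in Stra8 total labelled 4d. For Hsd3b6, Tsx and the RA-induced targets, Amh total labelled 4d thus lay apart from the other line at the same label.

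The Stra8 total arrays labelled 4h did not form 1 group. Replicate 1 had Rdh10 at 3491 units, Rarb at 368, Tsx at 253 and Hsd3b6 at 314, and replicates 2 and 3 had Rdh10 at 479 and 390, Rarb at 126 and 127, Tsx at 2936 and 2023 and Hsd3b6 at 4694 and 3081. Replicate 1 resembled Amh total labelled 4d in these genes (Rdh10 3127 and 3203, Rarb 470 and 451, Tsx 372 and 357) and replicates 2 and 3 resembled Stra8 total labelled 4d (Rdh10 410 and 656, Rarb 125 and 157, Tsx 1780 and 1775). The signal range of replicate 1 was narrow, with a standard deviation of log2 intensity of 1.71 against 1.92 and 1.90. Over all 3, Amh total labelled 4d differed in 127 genes (0.637%), 91 higher (0.456%) and 36 lower (0.181%), among them Cpm (2.53), B4galt6 (2.38), Epp13 (2.13), Cyp26a1 (1.99) and Snora44 (1.76) higher and Wfdc17 (-1.74), Rab3b (-1.57), Tpbgl (-1.54), Plk5 (-1.26) and H2-Aa (-1.19) lower. The split was 74 higher and 46 lower after median centring and 75 and 48 after quantile normalization. The count was 318 without Stra8 total 4h replicate 1, 914 against that replicate alone, and 0 with the compared groups fitted alone in limma (2274 at an unadjusted p under 0.05), so no single count describes this comparison.

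**Figure D5:**
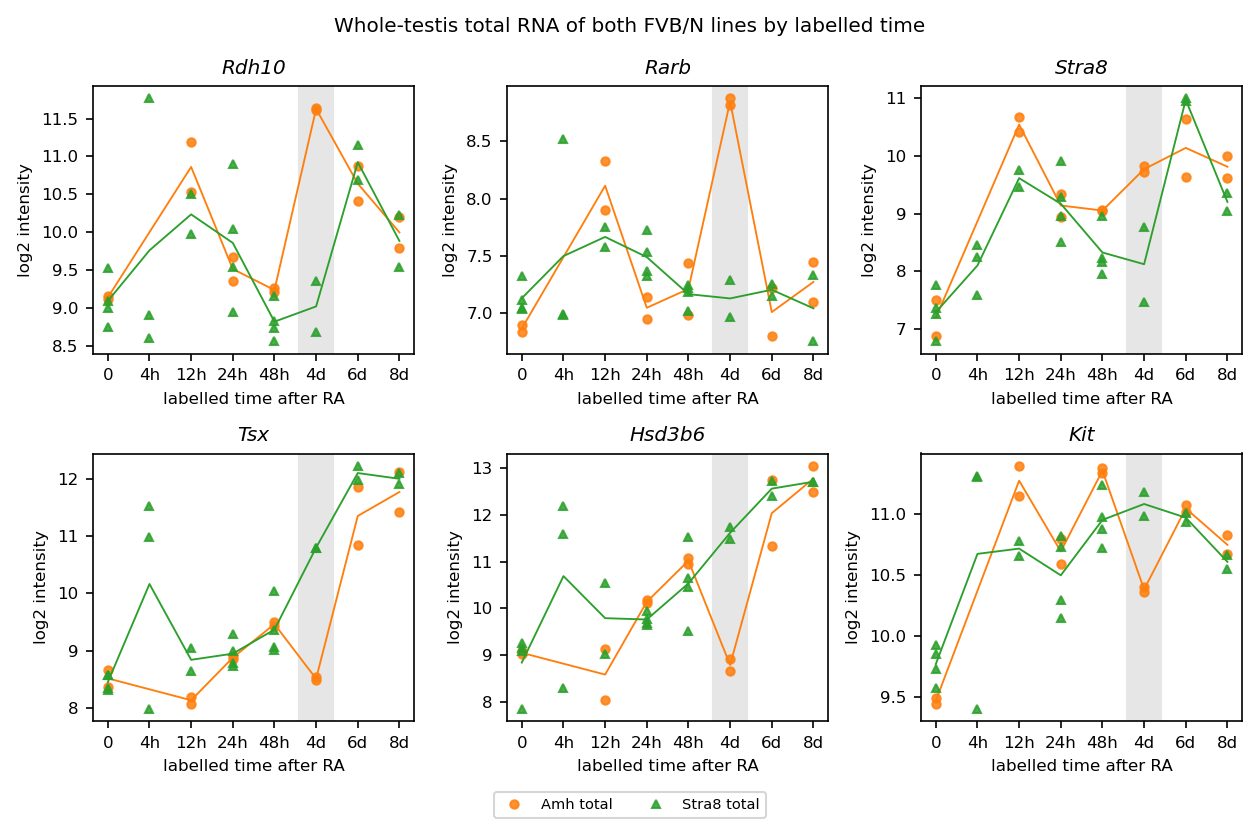
Log2 intensity of 6 genes in total RNA of the Amh (circles) and Stra8 (triangles) lines by labelled time; points are arrays, lines join group means and the grey band marks the label 4d. At that label Amh total is the higher line for Rdh10, Rarb and Stra8 and the lower for Tsx, Hsd3b6 and Kit, of which only Kit was not called. In addition, 1 of the 3 Stra8 total arrays labelled 4h stands apart from the others.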

How the data were processed

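RNA of each sample was amplified, biotin-labelled and hybridised to a 1-colour array, per the labels' protocols. The authors deposited RMA intensity values, linear; the submitters' processing notes name RMA, and its settings and the arrays' build are not stated in the sources at hand. Precision is limited by 2 arrays a group, and low signals (lowest value 25.1) are compressed. After log2, with no further scaling, the probe set of highest mean stood for a gene (28853 probe sets, of which 21789 had 1 gene, 1621 several and 5443 were not listed), leaving 19938 genes. One limma 3.58.1 model in R 4.3.3 gave each of 35 groups a mean over all 77 arrays, with eBayes and trend, and was checked on simulated data. Its spread takes in uneven groups such as Stra8 total labelled 4h. Genes that vary there carry a larger SE in every comparison, so a gene that did not pass may be one of them. Tests are two-sided, with Benjamini-Hochberg adjustment over all genes, and values after ± are SE. The labels do not say whether replicates are separate animals, so a p-value may measure only technical spread. Named genes were the 15 (main comparison) or 5 (others) called genes differing most each way whose Amh IP 4d and 0 arrays, or the arrays compared, did not overlap, without predicted or clone symbols, with called list members and a set list. Genes followed into further comparisons, such as Bbox1, Tpbgl and Mmp2, were chosen after their values were seen. Members, lists and comparisons were chosen with earlier results of these data known. Deviations of same-numbered arrays correlated at 0.286 between fractions at the label 4d, 0.114 between fractions at time 0 and from -0.19 to 0.08 between times. The labels do not tie same-numbered arrays to 1 animal and there are 2 numbers only, so the fits have no block, also between fractions, where the correlations were above 0.1. The side-by-side comparisons of other groups with their own time 0, the crossed pairing and the fits without doubtful arrays were added after seeing the data.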

Additional observations from a re-analysis of the deposited data

Results flagged for a closer look

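Changes from time 0 that differed between groups, by a limma test of the difference itself, are given as log2 values. In Amh IP RNA labelled 4d the change was more positive than in Amh total RNA for Uchl1 (2.21) and Prm1 (1.66). It was more negative for Rny1 (-1.78), Snora31 (-1.42), Camk2n1 (-1.37), Epp13 (-1.28) and Mael (-1.26). Against the change in Stra8 IP RNA labelled 4d it was more positive for Lzts1 (3.73), Slc35f2 (3.43), Rdh10 (3.40), Camk1d (2.85) and Uchl1 (2.76). There it was more negative for Snord82 (-3.14), Snord57 (-2.67), Rps6ka6 (-2.54), Gdap10 (-2.52) and Slc27a6 (-2.52). Against the change in Stra8 IP RNA labelled 4h it was more positive for Lzts1 (3.00), Uchl1 (2.70), Anpep (2.16), Cfap161 (2.06) and Stk32c (1.94). It was more negative for Snord82 (-3.06), Snora23 (-2.44), Snord57 (-2.43), Taf1d (-2.04) and Stox2 (-1.95). Each compared array was left out in turn, but in a group of 2 arrays this cannot tell which of them is the outlying one.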

How the results depend on the processing

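Of 49 named genes called against time 0, 661 of 685 pairs of gene and setting kept direction and call, 24 lost the call and 0 turned; of 8 not called, 109 of 112 pairs stayed so, and Ddx4 was called in the other 3. Without the fold minimum limma called 1957 genes (4d against 0), 2645 (4h), 1471 (48h), 3306 (6d), 1448 (total RNA), 15 (IP against total change), 7132 (IP against total), 3945 and 877 (against Stra8 IP changes at 4d and 4h), and 2356 and 2286 (against Stra8 total 4d and 4h). With the compared groups alone, the IP against total change gave 35 and the comparison with Stra8 total 4h gave 0, with 2274 at an unadjusted p under 0.05; with Stra8 total 4h replicate 1 alone it gave 914. Leaving out 1 array gave, in the same order, 157 to 208, 471 to 501, 243 to 277, 512 to 675, 85 to 106, 3 to 9, 882 to 935, 721 to 1121, 74 to 208, 176 to 299 and 96 to 318. Groups left with 1 array are assumed to vary like the others. Median centring gave 74 higher and 46 lower against Stra8 total 4h (91 and 36 without it). With the replicate block the main comparison called 188 genes and the IP against total change 6. No count moved by over 1.5 times with that block, and crossed pairing of the arrays labelled 4d called 277 against 48h and 523 against 6d. Within the Amh line each compared group has 1 array of each number. The block, straight or crossed, then leaves the differences unchanged and alters only the spread, so these counts cannot show whether a pairing matters. Without the other doubtful groups (Amh IP labelled 4h, Amh total labelled 4d, Stra8 total labelled 4h; chosen after seeing the data) 190, 281 and 525 genes were called against time 0, 48h and 6d. Low signals near the floor limit small differences.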
